A study of Mus musculus with 17 samples.

Results

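Cytosolic ribosomal protein genes encode the protein subunits of the ribosome that translates messenger RNA in the cytoplasm. Here they are the protein-coding mouse genes with a symbol of the form Rpl or Rps followed by a number, the P-stalk genes Rplp0, Rplp1 and Rplp2, and Rpsa, with predicted genes and pseudogenes left out. The rule found 80 genes among 55536 genes of the GENCODE M21 annotation. Of these, 79 had an identifier in the table of glands and uncloned organoids and 80 in the table of clones, and 76 in each table passed the filter on low counts.

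The large (60S) subunit holds the peptidyl transferase centre and the exit tunnel, and the small (40S) subunit decodes the message. The P-stalk, a lateral arm of the large subunit made of Rplp0 with dimers of Rplp1 and Rplp2, recruits and stimulates the elongation factor GTPases. Most mRNAs of these genes begin with a run of pyrimidines, the 5′ terminal oligopyrimidine (TOP) tract, through which mTORC1 and the binding protein Larp1 control their translation and stability as a group. In mouse the genes have many processed pseudogenes.

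The lacrimal gland makes the watery part of tears. RNA was sequenced from wild-type mouse lacrimal glands (3 libraries, numbered 6, 7 and 8) and from uncloned wild-type gland organoids of the same numbers in expansion medium (EM, 3 libraries) or differentiation medium (DM, 3 libraries). A second table of 8 libraries held clonal organoids, 2 clones of wild type (WT) and 2 that the labels call Pax6-KO, with both media for each. The labels do not say whether the numbers are separate animals, so the p-values measure the spread between these libraries. Each clonal line is a single clone, so a genotype rests on 2 clones. The growth protocol gives 7 days of EM, or 2 days of EM followed by 5 days of DM, while the design text gives the clones 7 days in each medium. Sources used here give neither how the knockout was made nor the age of the mice.

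Total counts ran from 12801473 to 19207469 in the first table and from 18282059 to 22500534 in the clones. Pax6, the transcription factor targeted in the labelled clones, was read at 245 and 276 CPM (counts per 1e6 of the scaled library size) in WT clones 1 and 2 in EM and at 219 and 280 CPM in DM. In the clones labelled Pax6-KO it was read at 172 and 272 CPM in EM and at 135 and 309 CPM in DM, so its transcript level did not separate the genotypes and does not check the labels. Pax6 was at 296 to 313 CPM in the glands and 150 to 197 CPM in the uncloned organoids. The 6 acinar markers, which define the tear-secreting cells, summed to between 18624 and 21927 CPM in the glands, to at most 26.6 CPM in uncloned organoids and to at most 34.0 CPM in clones. The 6 fibroblast markers summed to between 656 and 788 CPM in the glands and to at most 0.57 CPM in any organoid library, with Col1a2 and Lum at 0 in most organoid groups. The 7 proliferation markers summed to between 115 and 297 CPM in the glands and to between 964 and 1086 CPM in uncloned EM.

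The start of the transcript is shown for 7 of the members named below, because the group is known for its pyrimidine tract. Among named members not shown, the longest run lies off the start in Rps27l, Rpl26, Rpl10, Rps7 and Rps25. It also lies off the start in Rpl4, Rpl5, Rpl11, Rpl23, Rpl37a, Rpl39, Rps12, Rps15 and Rps16, among others. It covers the start in some, such as Rps28. The windows run from 10 bases before the annotated start to the 20th base after it, on GRCm38.p6, from RefSeq promoters. Capitals mark the longest run of C and T in the window.
Rplp0: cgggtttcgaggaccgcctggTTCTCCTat
Rplp2: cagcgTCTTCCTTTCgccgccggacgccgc
Rpl7a: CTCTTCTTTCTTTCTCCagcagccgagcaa
Rpl27a: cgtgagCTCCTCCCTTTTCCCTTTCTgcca
Rpl35: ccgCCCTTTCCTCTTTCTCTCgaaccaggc
Rps2: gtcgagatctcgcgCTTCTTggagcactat
Rps27: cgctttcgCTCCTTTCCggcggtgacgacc
The windows lie at chr5:115559457-115559486 on the plus strand for Rplp0, chr7:141447641-141447670 on the plus strand for Rplp2 and chr2:26910797-26910826 on the plus strand for Rpl7a. Those of Rpl27a, Rpl35, Rps2 and Rps27 lie at chr7:109519185-109519214 on the plus strand, chr2:39005112-39005141 on the minus strand, chr17:24720053-24720082 on the plus strand and chr3:90213629-90213658 on the minus strand. The run covers the annotated start in Rplp2, Rpl7a, Rpl27a, Rpl35 and Rps27, and it was longest in Rpl27a with 20 bases, while in Rplp0 and Rps2 the longest run begins 12 and 5 bases into the transcript as annotated.

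The RefSeq promoter table matched 60 of the 80 members. Rplp1, Rpl3, Rpl7, Rpl8, Rpl17, Rpl21, Rpl23a, Rpl29, Rpl30, Rpl32, Rpl36, Rps14, Rps20, Rps27a and Rps29 were among those it did not match. A C at the annotated start followed by at least 4 further C or T bases was found in 13 of the 60 (21.7%), and in 3.01% of the 27025 genes in that table. The letters CTCTTTC, read on the transcript's strand from 50 bases before the start, were in 20% of the members and in 1.62% of the genes. The letters CCGGAAG, the core that ETS-family factors bind, were on either strand of 41.7% of the members' promoters and of 9.93% of all. The letters TATAAA were in 10% of the members' promoters and in 15.7% of all. These are matches of letters in windows of 250 bases before and 50 after the start. Members with and without the pyrimidine start had medians of -0.38 and -0.38 for the log2 fold change of DM over EM in WT clones, over 13 and 43 tested members. In uncloned organoids these medians were -0.34 and -0.63 for EM over gland, -0.51 and -0.57 for DM over gland and -0.03 and 0.06 for DM over EM.

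Counts on the member genes made up 1.87%, 1.76% and 1.71% of all counts in glands 6, 7 and 8. In uncloned organoids they made up 4.58%, 4.84% and 4.58% in EM and 4.66%, 4.50% and 4.06% in DM. The glands were below every organoid library by this measure, and EM and DM overlapped. The 10 genes with most counts held between 65.5% and 67.6% of a gland library and at most 6.72% of an uncloned organoid library. With those 10 genes left out of the total, the members made up 5.22%, 4.95% and 4.48% of the glands, 4.70%, 4.98% and 4.70% of EM and 4.76%, 4.58% and 4.14% of DM, so that the 3 groups overlapped.

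Among clones, the members made up 4.55% and 4.56% of counts in WT EM and 3.54% and 3.03% in WT DM. The clones labelled Pax6-KO had 3.84% and 3.999% in EM and 3.10% and 3.36% in DM. Both media were apart in each genotype, and in EM the labelled KO clones were below both WT clones. In DM the genotypes overlapped. Small subunit genes had between 0.731 and 0.810 counts for each count on large subunit genes in the 17 libraries.

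**Figure D1:**
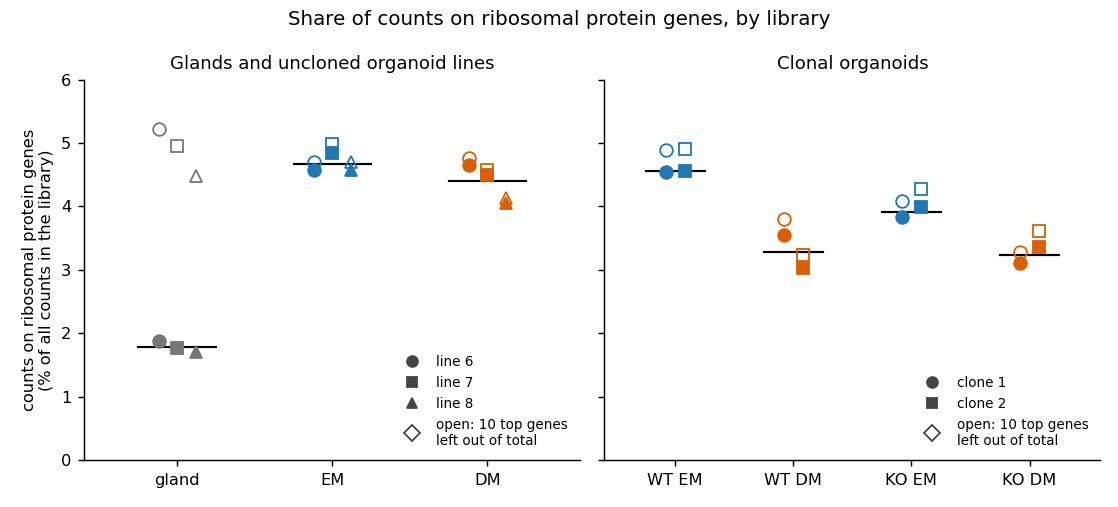
Counts on the ribosomal protein genes as a percentage of all counts in each library, by group (filled symbols; black lines are group means of filled symbols), and with the 10 genes with most counts left out of the total (open symbols). The filled gland symbols lie at 1.71% to 1.87%, below every organoid library. The open ones lie at 4.48% to 5.22%, with gland 6 above every uncloned organoid library and glands 7 and 8 among them. The 10 genes were picked within each table and differ between the panels.

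Set per length of the union of each gene's exons, as TPM (transcripts per 1e6), Rplp1 had the highest level of all members in both tables, with a group mean of 966 in glands, 8045 in uncloned EM and 5930 in uncloned DM. TPM, like total counts, are shares of the whole library, which in glands is mostly the 10 top genes, so they order the members within a group and are not compared between gland and organoids. Rplp1 was also first in clones, with a group mean of 10543 TPM in WT EM, 6318 in WT DM, 9344 in labelled KO EM and 6322 in labelled KO DM. The other highest levels in the first table were those of Rplp0, Rps15, Rpl4 and Rpl32, and in clones those of Rps15, Rplp0, Rpl4 and Rpl17. The place of Rplp1 held with the longest or the principal transcript as the length. Of the 5 highest in the first table, 2 (Rplp1 and Rplp0) stayed among the 5 highest with either other length, so the order below them rests on the gene model.

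The lowest levels were those of paralogs known from other tissues. Rpl10l, the copy of Rpl10 known from testis, had no counts in any of the 17 libraries, and Rpl39l, known from male germ cells, had 3 counts in gland 6 and none elsewhere. Rpl3l, the copy of Rpl3 known from striated muscle, had at most 2 counts in a library. After them came Rpl35a and Rps15a in the first table. In clones Rpl24, Rps10 and Rpl23a came next, and Rpl24 had 1 to 9 counts per library there and is not analysed here in the first table.

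Against the gland, ribosomal protein genes were lower in organoids relative to the other genes, with a few exceptions. In EM, 64 of the 76 tested members fell and 2 rose, against a background of 37.4% of the 13713 tested genes lower and 37.4% higher (edgeR's quasi-likelihood test, adjusted p under 0.05). In DM, 67 fell and 1 rose, against 37.4% lower and 38.1% higher. The median log2 fold change of the members was -0.63 in EM and -0.57 in DM, while that of all tested genes was 0.01 and 0.02. The direction depends on the scaling: per total counts, 75 members rose and 1 fell in each medium, against 83.8% of genes higher and 9.49% lower in EM and 84% and 9.27% in DM. The medians were then 1.43 and 1.40, as the median of all genes moved to 2.06 and 1.98. Per total counts without the 10 top genes, 27 members rose and 24 fell in EM, against 57.4% and 21.8% of genes, and 16 rose and 28 fell in DM, against 55.4% and 23.7%. The 2 comparisons share the gland libraries. In bulk RNA, fewer cells of a type and less RNA per cell cannot be told apart, and the glands held acinar and stromal markers that the organoids nearly lacked. The part of these cells in the result was not tested.

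The P-stalk genes split. Rplp1 was at 1484, 1192 and 1366 CPM in glands 6, 7 and 8, at 698, 759 and 721 CPM in EM and at 651, 617 and 553 CPM in DM. Every gland was above every organoid library. The log2 fold change of Rplp1 was -0.89 ± 0.11 (SE) in EM and -1.15 ± 0.11 in DM (adjusted p = 2.00e-06 in DM). Its partner Rplp2 was at 252, 230.0 and 218 CPM in the glands and at 277, 272 and 281 CPM in EM. It rose by 0.25 ± 0.08 in EM (adjusted p = 0.0182) without overlap, though not without gland 8 (adjusted p = 0.0601), and in DM, at 207, 232 and 223 CPM, it overlapped the glands. Rplp0, their anchor on the ribosome, fell in DM alone by the test, at -0.37 ± 0.10 (adjusted p = 0.00396), and was at -0.21 ± 0.10 in EM (adjusted p = 0.0674).

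With TMM scaling, 40 of 42 tested large subunit genes outside the stalk fell in EM and 40 in DM, against 37.4% of all genes in each medium, with medians of -0.69 and -0.61. Rpl26, which binds near the tunnel exit and is known to bind p53 mRNA, was at 710, 642 and 589 CPM in the glands and at 278, 285 and 260.0 CPM in EM. Rpl26 was at least 589 CPM in each gland and at most 285 CPM in EM, and fell by 1.24 ± 0.12 (adjusted p = 1.83e-06). Rpl10, which joins the large subunit last, was at 1497, 1621 and 1315 CPM in the glands and at 708, 636 and 600.4 CPM in DM, a log2 fold change of -1.19 ± 0.11 (adjusted p = 1.57e-06). Rpl5 and Rpl11, which with 5S ribosomal RNA can bind Mdm2, changed by -1.03 ± 0.10 and -0.86 ± 0.10 in EM, both past the test. Exons of Rpl5 overlap Fam69a on the opposite strand over 46.6% of their length, and the strand setting of the counting is not given.

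With the same scaling, 23 of 31 tested small subunit genes fell and 1 rose in EM, against 37.4% of all genes each way. In DM 25 fell and 1 rose, against 37.4% and 38.1%. Rps27l, a paralog of Rps27 known as a p53 target, moved most. It was at 397, 374 and 362 CPM in the glands, at 71.9, 68.9 and 66.9 CPM in EM and at 78.3, 75.5 and 63.5 CPM in DM. The organoid libraries lay together, well below each gland, with log2 fold changes of -2.45 ± 0.10 in EM and -2.38 ± 0.10 in DM. The adjusted p-values were 1.58e-09 and 1.74e-09. Rps27l fell under each scaling tried and was the member that also fell per total counts. Its paralog Rps27 was at 413, 421 and 360 CPM in the glands and at 315, 339 and 289 CPM in EM, a log2 fold change of -0.34 ± 0.13 (adjusted p = 0.0298).

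Rps2, which lies at the entry of the mRNA channel, went the other way. It was at 493, 427 and 458 CPM in the glands, at 839, 790 and 861 CPM in EM and at 663, 647 and 693 CPM in DM. All 6 organoid libraries were above all 3 glands, and Rps2 rose by 0.85 ± 0.09 in EM and 0.54 ± 0.09 in DM. The adjusted p-values were 4.92e-06 and 0.000187. Rps14, a protein of the 40S platform, was at 1291, 1092 and 1025 CPM in the glands and at 396, 437 and 387 CPM in EM, a log2 fold change of -1.48 ± 0.12 (adjusted p = 5.36e-07). Rps7, Rps25 and Rps24 changed in EM by -1.39 ± 0.11, -1.34 ± 0.11 and -1.25 ± 0.10, each past the test. Exons of Rps25 overlap genes on the opposite strand over 48.7% of their length, and the strand setting of the counting is not given. With the scaling to the members' own summed counts, chosen after the data were seen, 29 members rose and 24 fell in EM, against 56.8% and 20.8% of genes, with Rps2 at 1.52 and Rplp2 at 0.92 at one end and Rps27l at -1.78 and Rps14 at -0.81 at the other. With their sum held equal, members thus still differed in proportion to each other.

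**Figure D2:**
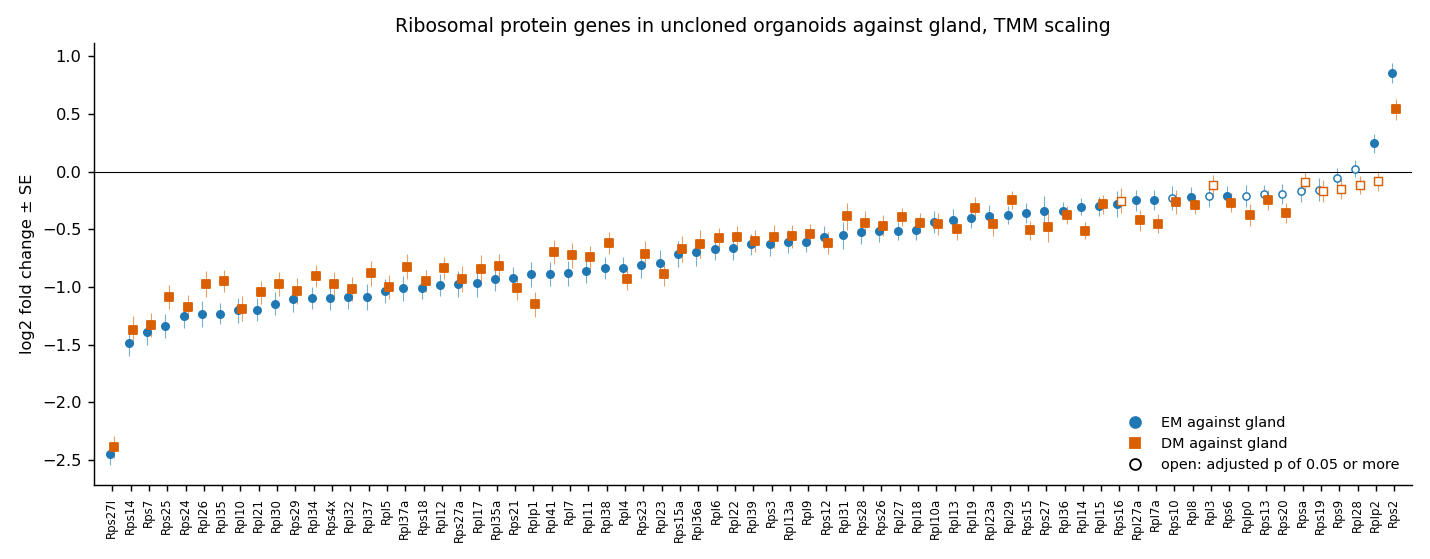
Log2 fold change ± SE of 71 tested ribosomal protein genes in uncloned organoids against gland under TMM scaling, ordered by the change in EM (circles, EM; squares, DM; filled, adjusted p under 0.05). Rps27l lies at -2.45 and -2.38 and Rps2 at 0.85 and 0.54, and most others lie between -1.5 and 0; per total counts 75 of all 76 tested members were above 0.

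Other lists of the pathway are given with TMM scaling, under which 37.4% of all genes fell and 37.4% rose in EM, while per total counts 83.8% of genes rose. Of 6 tested ribosomal protein genes that the symbol rule leaves out, 4 fell in EM and 4 in DM. Their log2 fold changes in EM were -2.05 ± 0.08 for Rpl36al, a copy of Rpl36a, -1.48 ± 0.11 for Rpl22l1, a copy of Rpl22, -1.16 ± 0.10 for Rps3a1 and -0.49 ± 0.09 for Rpl7l1, a nucleolar relative of Rpl7. Fau, which is made as a ubiquitin-like fusion, was at -0.20 ± 0.09, not past the test. Of 73 mitochondrial ribosomal proteins tested, 9 rose and 45 fell in EM, with a median of -0.50. Of 21 translation factors with TOP mRNAs or close partners, 3 rose and 15 fell, among them Tpt1, a translationally controlled protein, at -1.19 ± 0.12, while Eif3f rose by 0.91 ± 0.10. Of 39 ribosome biogenesis genes, 8 rose and 24 fell: Ubtf, an RNA polymerase I factor, changed by -1.06 ± 0.07, and Eif6, which keeps free 60S subunits apart from 40S, by 1.14 ± 0.09. Of 21 regulators, 8 rose and 9 fell, with a median of -0.01. Rps6kb1, the kinase of Rps6, fell by 1.64 ± 0.08. Of inhibitors of mTORC1, Ddit4 rose by 3.9 ± 0.19 and Tsc2 fell by 0.58 ± 0.09, and the translation repressor Eif4ebp2 fell by 1.11 ± 0.09. Sesn2, also an inhibitor of mTORC1, was at 8.5, 8.2 and 9.9 CPM in glands 6, 7 and 8 and at 37.0, 36.8 and 29.8 CPM in EM.

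In uncloned organoids, DM and EM differed little for most members. By the test 1 of 76 rose and 2 fell, against a background of 17.2% of genes higher and 13.2% lower, and the median was 0.05. Per total counts 0 rose and 8 fell, against 14.2% and 19% of genes, and without the 10 top genes 0 rose and 9 fell, against 14% and 19.9%. Rplp2 fell by 0.33 ± 0.08 (adjusted p = 0.0114), with every DM library below every EM library, a call lost without DM 6 (adjusted p = 0.0626). Rps2 fell by 0.31 ± 0.09 (adjusted p = 0.0208), again with no overlap, and lost the call without EM 6 or 8 or DM 6 or 7 (adjusted p from 0.0665 to 0.0801). Rpl35, a protein at the exit tunnel, was at 128, 135 and 134 CPM in EM and at 170.0, 168 and 144 CPM in DM. Its DM values were all above EM, and it rose by 0.28 ± 0.09 (adjusted p = 0.0378), a call lost per total counts (adjusted p = 0.115) and in 5 of the 6 fits that left out an EM or DM library. Of the exons of Rpl35, 68.3% overlap genes on the opposite strand, and no source used here gives the strand setting of the counting.

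The P-stalk genes had the lowest median of the 3 structural parts, -0.26, against 0.08 for the rest of the large subunit and 0.05 for the small subunit. Rplp1 and Rplp0 were at -0.26 ± 0.11 (adjusted p = 0.0932) and -0.17 ± 0.09 (adjusted p = 0.218). Stalk counts made up 7.84%, 8.10% and 8.36% of all member counts in EM and 6.81%, 6.94% and 7.18% in DM, without overlap. In the glands they made up 6.89%, 6.42% and 7.15%.

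The 3 lines did not move together. In line 6, 62 of 76 members were higher in DM than in EM, in line 7, 41 were, and in line 8, 55 were lower, with medians of 0.16, 0.02 and -0.06. Of all genes, 48.9%, 50.9% and 48.7% were lower in DM in lines 6, 7 and 8. Within DM, line 6 was the highest library for 68 of 76 members and line 8 the lowest for 72, which was not counted over all genes. Without DM 8, 8 members were called higher in DM and 2 lower, against 19.8% and 18.4% of genes, so that the share called higher was below the background. The 7 proliferation markers summed to between 451 and 1030 CPM in these DM libraries and none of the 7 was called.

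In WT clones, all 76 tested members had lower fitted values in DM than in EM, against 50% of all genes, and 13 fell by the test, against 6.13% of genes lower and 9.61% higher. None rose. The median was -0.37. In 71 of 76 both DM libraries lay below both EM libraries, against 29.3% of genes. With the clone as a block in the fit, 30 fell, against 10.7% of genes, and with DESeq2 38, against 8.19%. Without both libraries of WT clone 2, or with the spread taken from the 4 WT libraries alone, 1 fell, against 3.24% and 1.9% of genes. Leaving out 1 library, the count was 0 without WT EM clone 1, 2 without WT EM clone 2, 13 without WT DM clone 1, 3 without WT DM clone 2 and 3 to 7 without a labelled KO library, against 1.38% to 5.05% of genes over these fits.

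All 3 P-stalk genes were among the 13. Rplp1 was at 1597 and 1684 CPM in EM and at 1049 and 985 CPM in DM in clones 1 and 2, a log2 fold change of -0.69 ± 0.16 (adjusted p = 0.0299). Rplp0 was at 2055 and 2185 CPM in EM and at 1414 and 1439 CPM in DM, a log2 fold change of -0.57 ± 0.14 (adjusted p = 0.0383). Rplp2 was at 774 and 786 CPM in EM and at 588 and 503 CPM in DM, a log2 fold change of -0.52 ± 0.13 (adjusted p = 0.0377). In each of the 3 genes the media were apart in both clones.

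Of the large subunit, Rpl27a and Rpl7a fell, with log2 fold changes of -0.60 ± 0.14 and -0.54 ± 0.14 (adjusted p = 0.0279 and 0.0417), and Rpl39, a small protein of the exit tunnel, and Rpl23 were also called. Of the small subunit, Rps27 was at 538 and 537 CPM in EM and at 336 and 350 CPM in DM, a log2 fold change of -0.65 ± 0.10 (adjusted p = 0.00879). Rps21 was at 325 and 320.1 CPM in EM and at 194 and 222 CPM in DM, a log2 fold change of -0.63 ± 0.11 (adjusted p = 0.0132). Rps16 and Rps28 were also called. All 4 values of each called gene lay in 2 separate pairs, EM above DM. Scaled to the members' own summed counts, 0 of the 76 were called in WT clones by edgeR, against 25.9% of genes higher and 1.7% lower. At an unadjusted p under 0.05 there were 0, against 5998 of the 14282 genes. That scaling removes any shift the members share, so it shows only changes of members relative to each other.

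Of 21 translation factors, 4 fell in the same comparison and 0 rose, against 6.13% of genes lower. They were Eef1d and Eef1b2, subunits of the exchange factor for elongation factor 1A, at -0.62 ± 0.11 and -0.50 ± 0.13, Eif3e at -0.48 ± 0.09 and Eif4b at -0.50 ± 0.14. Of 40 biogenesis genes 3 fell, among them Npm1, a nucleolar chaperone, at -0.57 ± 0.15, and 0 rose. Of 74 mitochondrial ribosomal proteins 2 fell, Mrpl9 (-0.85 ± 0.12) and Mrpl12 (-0.44 ± 0.12). Among regulators, Mxd1, a Max partner that opposes Myc, rose by 1.21 ± 0.28, Mdm2 rose by 0.61 ± 0.10 and Eif4ebp2, a repressor of cap-dependent translation, fell by 0.68 ± 0.12. Myc itself was at 86.7 and 113 CPM in EM and at 176 and 121 CPM in DM and was not called. The 7 proliferation markers summed to between 315 and 386 CPM in WT EM and to between 110 and 226 CPM in WT DM, and 2 of them fell. Their part in the result was not tested.

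In the clones labelled Pax6-KO, 74 of 76 members had lower fitted values in DM, against 50.3% of all genes, with a median of -0.19. None passed edgeR's test without a block, against 3.41% of genes lower and 4.94% higher. At an unadjusted p under 0.05 there were 13 of the 76, against 3510 of the 14282 genes, so the members' share was below that of all genes. DESeq2 called 5 lower, against 5.9% of genes. Both DM libraries lay below both EM libraries for 57 members, against 29.5% of genes. Rplp1 was at 1335 and 1506 CPM in EM and at 865 and 1108 CPM in DM in clones 1 and 2, a difference of -0.53 ± 0.16 (adjusted p = 0.0933, and 0.0396 with the clone as a block). Rps12, at the beak of the small subunit, was at 861 and 917 CPM in EM and at 577 and 703 CPM in DM, a difference of -0.47 ± 0.15 (adjusted p = 0.112, and 0.0489 with the block). Those 2 were the members called with the block, against 7.12% of genes lower. The proliferation markers summed to between 399 and 549 CPM in EM and between 129 and 139 CPM in DM, with 4 of 7 called lower, and Eef1d, Npm1 and Mrpl9 were called lower as in WT clones.

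**Figure D3:**
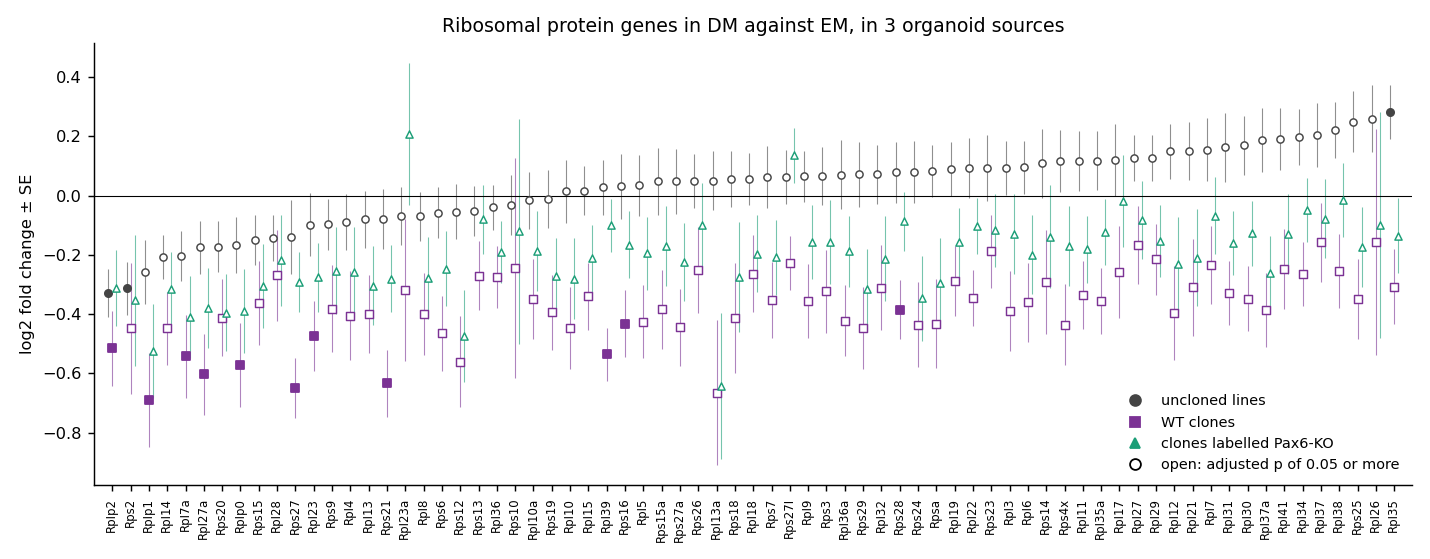
Log2 fold change ± SE of DM over EM for 71 tested ribosomal protein genes in uncloned lines (circles), WT clones (squares) and clones labelled Pax6-KO (triangles), ordered by the uncloned lines; filled symbols have an adjusted p under 0.05. All 71 squares lie below 0, while the circles run from -0.33 for Rplp2 to 0.28 for Rpl35.

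The P-stalk had the lowest median of the 3 parts in each organoid source, with -0.57 in WT clones and -0.39 in labelled KO clones. The rest of the large subunit had -0.35 and -0.19 and the small subunit -0.39 and -0.22. The stalk is 3 genes, and the lowest single member in labelled KO clones, at -0.64, was of the rest of the large subunit. Over the members, the change was also lower at a higher mean level. Spearman's rho was -0.26 in uncloned lines, -0.32 in WT clones and -0.46 in labelled KO clones. Across the 76 members, the log2 fold changes of DM over EM in uncloned lines and WT clones, which share no library, had Pearson's r of 0.58 and Spearman's rho of 0.58. For uncloned lines and labelled KO clones these were 0.54 and 0.63, and for WT and labelled KO clones 0.73 and 0.77. Genes are not independent replicates, and these values describe an order only. In 14 of 76 members, against 17.8% of the genes tested in both tables and so near the background, the DM value was below the EM value in all 7 pairs of libraries of the same line or clone: Rplp0, Rplp1, Rplp2, Rpl4, Rpl7a, Rpl8, Rpl14, Rpl23, Rpl27a, Rpl28, Rps2, Rps9, Rps15 and Rps20. In 69 members it was lower in all 4 clones, against 24.1% of the genes tested in clones.

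**Figure D4:**
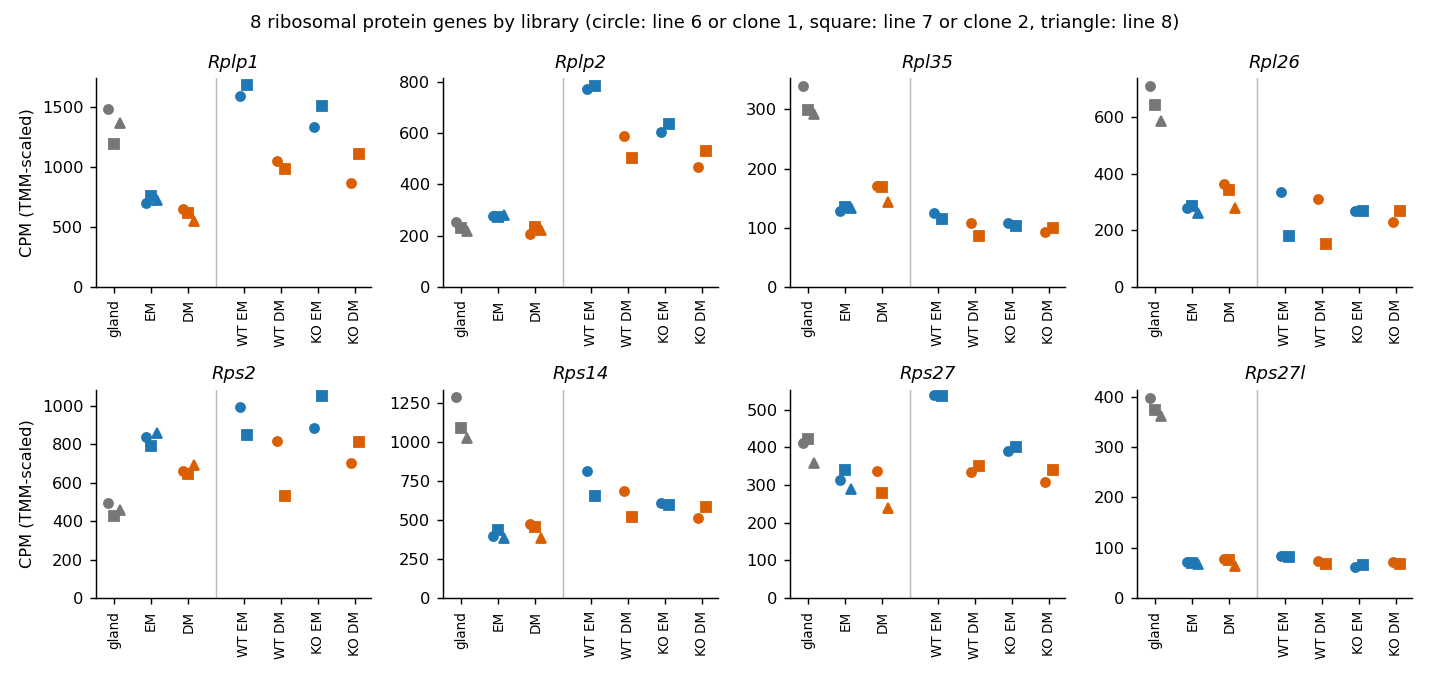
CPM on scaled libraries of 8 ribosomal protein genes in each library (grey, gland; blue, EM; orange, DM; the vertical line parts the 2 tables, whose levels are not compared). Rplp1 and Rplp2 are lower in DM than in EM in each line and clone. Rps27l is at 362 to 397 CPM in glands and well below that in every uncloned organoid library.

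In EM, the clones labelled Pax6-KO had lower fitted values than WT clones for 74 of 76 members, against 49.3% of all genes, with a median of -0.24. By the test 4 fell and 0 rose, against 4.41% of genes lower and 5.38% higher, a share near the background. Both labelled KO libraries lay below both WT libraries for 65 members, against 30.4% of genes. Rps27 was at 538 and 537 CPM in WT and at 392 and 400.3 CPM in labelled KO, a log2 fold change of -0.44 ± 0.10 (adjusted p = 0.0400). Rps27l was at 84.2 and 80.9 CPM in WT and at 61.4 and 64.9 CPM in labelled KO, a log2 fold change of -0.39 ± 0.09 (adjusted p = 0.0443). Rpl39 was at 123 and 115 CPM in WT and at 89.6 and 92.5 CPM in labelled KO, a log2 fold change of -0.38 ± 0.09 (adjusted p = 0.0419). Groups did not overlap for any called gene, and with any 1 of the 4 EM libraries left out 0 members fell, with a labelled KO DM library left out 1 and with a WT DM library left out 5, against 0.373% to 5.01% of genes lower over these fits. DESeq2 called 15 members lower, against 7.6% of genes.

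None of the 21 translation factors and none of the 40 biogenesis genes was called in that comparison, with medians of -0.19 and 0.05. Of all genes, 4.41% were called lower and 5.38% higher there. At these shares few calls would be expected in lists this short, so their absence says little. Among regulators Ddit4 (-0.85 ± 0.17) and Mycl, a Myc relative (-1.37 ± 0.30), fell, and Rptor, a subunit of mTORC1, rose by 0.45 ± 0.10. Mrpl9 was the 1 of 74 mitochondrial ribosomal proteins that fell (-0.82 ± 0.12), against 4.41% of genes lower.

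In DM no member was called between the genotypes by edgeR, against 3.08% of genes lower and 2.39% higher. DESeq2 called 0, against 6.6% and 5.06% of genes. At an unadjusted p under 0.05 in edgeR there were 2 of 76, against 3486 of the 14282 genes. The median was -0.08, with 61 members below 0, against 51.2% of genes. Without both libraries of WT clone 2 it was -0.18, with 70 members below 0, against 51% of genes. Rpl37a, of the large subunit, was at -0.31 ± 0.12 (adjusted p = 0.189). Labelled KO libraries were both below WT for 9 members and both above for 1, against 26.3% of genes each way.

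The difference between genotypes in the response to DM was tested as an interaction. Its fitted value was above 0 for all 76 members, that is, the DM value was less far below EM in the labelled KO clones, against 47.7% of all genes above 0, and the median was 0.16. Without both libraries of WT clone 2, 54 members were above 0 and 22 below, against 47.3% of genes above, with a median of 0.06. Scaled to the members' own summed counts, 38 were above and 38 below, against 29.2% of genes above. That scaling holds the members' sum equal between libraries, so a split near even was set in advance. No member was called by edgeR or DESeq2, and edgeR called none of the 14282 genes, while DESeq2 called 0.28% higher and 1.11% lower. At an unadjusted p under 0.05 there were 3 members in each, against 1126 of all genes in edgeR and 1024 in DESeq2. Rpl39 had the smallest p, at 0.44 ± 0.13 (adjusted p = 0.460): it was at 123 and 115 CPM in WT EM, 85.6 and 78.3 CPM in WT DM, 89.6 and 92.5 CPM in labelled KO EM and 85.5 and 84.5 CPM in labelled KO DM. Rps27l followed at 0.36 ± 0.13 (adjusted p = 0.546), with 73.7 and 67.3 CPM in WT DM and 70.8 and 68.1 CPM in labelled KO DM. In both genes WT EM stood above the 3 other groups. The interaction shares its libraries with the comparisons of the clones above.

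Within a group, most members were high or low in the same library. In glands, library 6 was the highest for 65 of 76 members and library 8 the lowest for 61. In WT DM, clone 2 was lowest for 70, and in labelled KO DM clone 1 was lowest for 74. WT EM was even, with clone 2 highest for 42. The same was not counted over all genes, so whether this order is particular to the members was not tested.

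**Figure D5:**
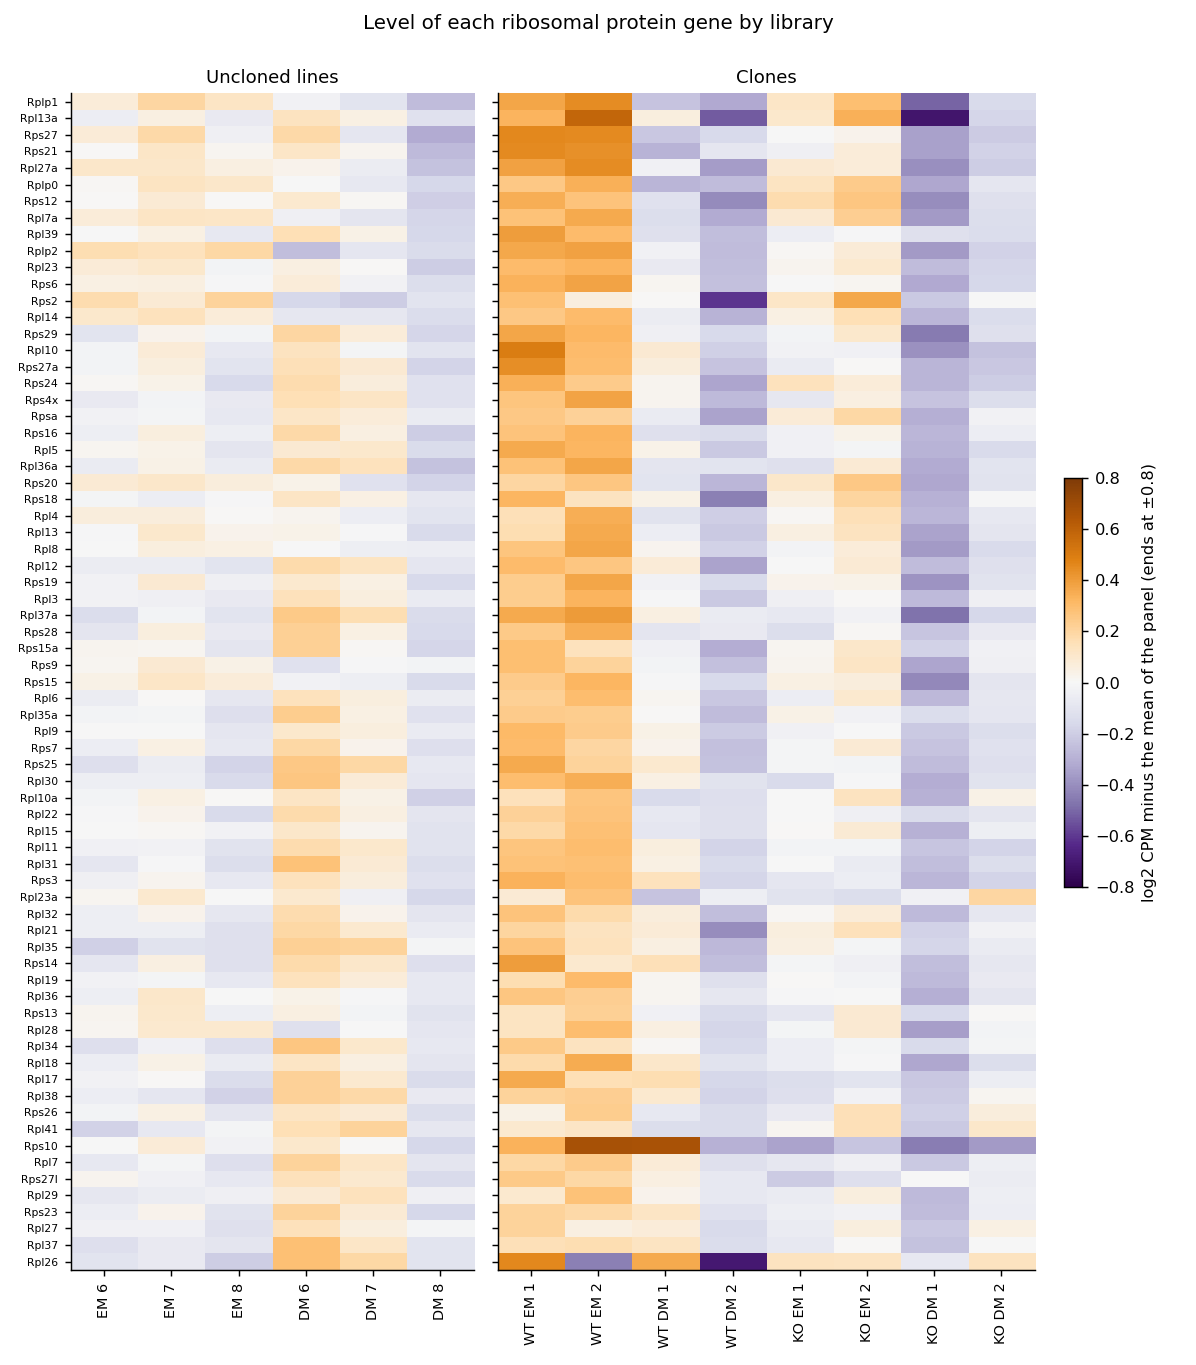
Log2 CPM of 71 tested ribosomal protein genes (rows, ordered by the WT change of DM against EM) in each organoid library (columns), minus the gene's mean over the panel; colours end at ±0.8. The DM 8, WT DM 2 and KO DM 1 columns are low for most rows, and Rpl26 differs between WT clones 1 and 2 in both media.

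The 2 WT clones differed from each other at Rpl26, and WT clone 2 differed from the other clones at some pseudogenes. Rpl26 was at 179 CPM in EM and 150 CPM in DM in WT clone 2 and at 335 and 312 CPM in WT clone 1. The labelled KO clones lay between, at 231 to 268 CPM. The pseudogene Rpsa-ps10 had 4015 and 1954 counts in WT clone 2 in EM and DM and 10 to 20 counts in the 6 other clone libraries. Rps15a-ps8 had 367 and 211 counts there and at most 2 in the others, and Rpl3-ps1 716 and 546 counts and 38 to 97 in the others. All named pseudogenes together held at most 0.0467% of a library's counts.

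A few members had far lower values in the table of clones than in the first table. Mean levels of Rps10 were 237 CPM in uncloned organoids and 3.09 CPM in clones, those of Rpl23a 309 and 4.61 CPM and those of Rpl13a 622 and 62.7 CPM, while the median ratio of clones to uncloned organoids over the members was 1.32. In GENCODE M21 the exons of Rps10 overlap those of the read-through gene RPS10-NUDT3 over 47.9% of their length on the same strand, and those of Rpl13a and Rpl24 overlap Gm45713 and Gm28037 among others over 59.3% and 71.5%. The exons of Rpl23a overlap Tlcd1 on the opposite strand over 55.4%. No source used here gives the annotation release behind each table, and these levels, scaled apart, are set side by side with no test.

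The log2 fold change of EM over gland was higher at higher GC content of the principal transcript across the 76 members, with Pearson's r of 0.43 and Spearman's rho of 0.40, and was not ordered by its length (0.02 and 0.10). The same description for DM over EM in WT clones gave -0.03 and -0.0025 with GC content. The members lie on 19 chromosomes, with 14 of the 80 on chromosome 7.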

How the data were processed

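RNA was sequenced from 17 libraries in 7 groups, with a stranded kit for polyadenylated RNA, per the labels' protocols. Per the submitters' processing notes, STAR aligned the reads, the build was GRCm38, and featureCounts counted them per gene. The deposited values are counts, whole numbers that are not normalised. No source used here gives versions, the strand setting or the treatment of reads that match several places, and reads shared with pseudogenes or overlapping genes may be split.

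Of the gene identifiers, 36429 of 38293 and 55227 of 55487 matched GENCODE M21, with 0.313% and 0.00821% of counts on the others. The 2 tables were fitted apart, each with a mean per group and all its libraries, in edgeR 4.0.16 (R 4.3.3): filterByExpr, scaling by the trimmed mean of M-values (TMM), and the quasi-likelihood test with Benjamini-Hochberg adjustment over all 13713 or 14282 genes tested. The residual degrees of freedom were 6 and 4 and the biological coefficients of variation 0.138 and 0.234. SE was taken as the size of the log2 fold change over the square root of F. The test was also run on simulated counts, with known changes set in uncloned DM or WT DM alone. All other libraries were drawn from the same mean levels, so that run does not cover the unlike composition of glands and organoids. CPM use the scaled library sizes, and TPM the counts over exon union length.

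The members and all gene lists were chosen with earlier results of these data known. For each comparison the text names, of the called members, the 6 that rose most and the 6 that fell most, or the 2 smallest p where fewer than 2 were called, then the paralogs, the 5 highest and 5 lowest levels per length, and genes with the smallest p of each list. Rpl5, Rpl11, Rpl37a, Rps12 and the stalk genes are given as background or by role, and Tsc2, Eif4ebp2 and Sesn2 were named after their values were seen. Some genes are not reported here by name and are left out of the plots by gene, while the counts and medians over the members include them. Members called "lower" in all pairs were counted after their values were seen. Of the paralogs in that rule, Rps4l is annotated as a pseudogene and was left out. Alternatives were other scalings, DESeq2 1.42.0, no filter, only the libraries compared, added pseudogene counts, each library left out and a replicate block. EM and DM libraries of the same number come from the same line or clone per the labels. Deviations from group means correlated at 0.20, 0.13 and 0.11 in lines 6, 7 and 8, at 0.60 in WT clones and at 0.51 in labelled KO clones, with genes as points. No 2 libraries held identical counts.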

Additional observations from a re-analysis of the deposited data

Results flagged for a closer look

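Rpl35 was higher in DM than in EM in each of the 3 uncloned lines, by 0.41, 0.32 and 0.11 on the log2 scale in lines 6, 7 and 8, and lower in both WT clones, at -0.22 and -0.41, and in both clones labelled Pax6-KO, at -0.22 and -0.05. The mean of the uncloned lines was 0.59 above that of the WT clones and 0.41 above that of the labelled KO clones. The lines and clones are in tables that were fitted apart, so this difference was not tested. Over the 76 members, 21 were higher in DM in all 3 uncloned lines, and the share of all genes with this pattern was not counted. By the stricter rule of no overlap between the groups, 3 of the 76 members were higher in DM, against 24.2% of all tested genes. Of the 21 members, 21 were lower in both WT clones and 19 in both labelled KO clones. This adds little, as 75 of the 76 members were lower in DM in WT clone 1 and 76 in WT clone 2. Rpl35 was thus not alone in this pattern.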

How the results depend on the processing

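Against the gland the calls depend on the scaling. In EM, the counts of members that rose and fell were 75 and 1 per total counts (83.8% and 9.49% of all genes), 27 and 24 without the 10 top genes (57.4% and 21.8%) and 29 and 24 scaled to the members' own counts (56.8% and 20.8%). In DM they were 75 and 1 (84% and 9.27%), 16 and 28 (55.4% and 23.7%), and 28 and 23 (57.5% and 20.6%), and 2 rose with no filter (26.4%). Per total counts the log2 fold change in EM was 0.58 for Rps14, 0.67 for Rps7, 0.72 for Rps25, 0.81 for Rps24 and 0.83 for Rpl26, and in DM 0.60 for Rps14, 0.64 for Rps7, 0.79 for Rpl10, 0.80 for Rps24 and 0.82 for Rplp1, all reversed in sign. In uncloned DM against EM, 0 rose per total counts, without the 10 top genes and with no filter (14.2%, 14% and 11% of genes), and 8, 9, 4 and 1 fell per total counts, without the 10 top genes, with DESeq2 and scaled to the members (19%, 19.9%, 13.4% and 8.36%). In WT clones, 33 fell in DM per total counts (8.01% of genes) and 33 without the 10 top genes (8.51%), 38 with DESeq2 (8.19%), 21 with no filter (4.94%), 1 with only the libraries compared (1.9%), 1 without both WT clone 2 libraries (3.24%) and 0 scaled to the members (1.7%). In labelled KO clones, 5 fell with DESeq2 (5.9%) and 2 with no filter (3.99%). For labelled KO against WT in EM, 15 fell with DESeq2 (7.6%), 2 with only the libraries compared (5.17%), 0 scaled to the members (1.88%) and 0 without both WT clone 2 libraries (2.42%). The scaling to the members and the fit without WT clone 2 were chosen after seeing the data, and the cause of these differences was not tested. Scaling to the members removes any shift they share, so its counts cannot say whether that shift depends on the processing.

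With the replicate block, 30 members fell in DM in WT clones (10.7% of genes) and 2 in labelled KO clones (7.12%); it changed no other call of a named member. No paired analysis was possible because each clone has 1 genotype for labelled KO against WT within a medium. With each library left out, the count that fell ran from 0 to 13 in WT clones (1.38% to 5.05% of genes), from 0 to 5 for labelled KO against WT in EM (0.373% to 5.01%) and from 0 to 2 in uncloned DM against EM (7.39% to 18.4%), where 0 to 8 rose (12.6% to 19.8%), and 1 to 2 rose in EM against the gland (35% to 37.9%). A group left with 1 library is assumed to vary like the others. Over the named members, 227 of 290 such fits kept the direction and side of the threshold, and the rest, 63, kept the direction only. Scaling by DESeq2 size factors or adding pseudogene counts kept all 34 named results.

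The mean share of counts with the 10 top genes of each table left out was 4.88% in glands, 4.90% in WT EM, 4.18% in labelled KO EM and 3.45% in labelled KO DM. With pseudogenes added it was 4.59% in WT EM. Of the 5 highest members per length, 2 stayed with the longest and 2 with the principal transcript in the first table and 3 with the principal transcript in clones. With 2 or 3 libraries a group, the SE of a member was about 0.1 on the log2 scale in the first table. It was larger for several of the members named in clones. Both limit what differences can be called.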
